A study of Homo sapiens with 6 samples.

Results

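The genes described here are 38 components of the G1/S transition and of the DNA replication machinery, out of 19777 genes named on the array. They were chosen by symbol, matched by Entrez identifier to probe sets annotated to exactly 1 gene, and each was represented by the probe set that was brightest over the 6 arrays. All 38 were named on the array and all 38 passed the filter on low values, as did 12663 genes in all. The RNA came from JJN3, an established line of human myeloma cells, and was hybridised to U133 Plus 2.0 arrays (Affymetrix). A virus had brought a short hairpin RNA (shRNA, called a hairpin here) into the cells, directed against CKS1B for 3 arrays and scrambled, without a specific target, for the other 3. Arrays are lettered A, B and C within each group. The labels leave unexplained the word "poly" in the title of the scrambled B sample. They do not state whether the arrays stem from separate cultures of this 1 line, so that p-values reflect only how far these arrays differ, and that spread may be technical.

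Replication is prepared in G1, when the origin recognition complex with CDC6 and CDT1 loads the ring of MCM2 to MCM7 onto DNA. At the G1/S transition kinases together with CDC45 and GINS turn that ring into an active helicase, and polymerases, the sliding clamp PCNA and its loader RFC copy the strands. Many of these genes are transcribed by E2F factors once cyclin-dependent kinases inactivate the retinoblastoma protein. CKS1B binds cyclin-dependent kinases and helps the SCF-SKP2 ligase to mark the kinase inhibitor CDKN1B (p27) for degradation, so the comparison bears on the cell cycle stage that these genes serve.

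Levels below are linear MAS5 intensities. A log2 difference subtracts the scrambled mean from the CKS1B hairpin mean of log2(value + 16), so dim genes appear to change less than they do, and its standard error (SE) comes from limma. CKS1B itself read 481, 269 and 828 on CKS1B hairpin arrays A, B and C, against 8266, 8441 and 7294 on the scrambled ones in the same order. Every CKS1B hairpin array lay below every scrambled array, a log2 difference of -4.02 (SE 0.44, adjusted p = 0.246 in limma, and 0.00126 without CKS1B hairpin array B). CKS1B hairpin array B stood apart, with a correlation of at most 0.610 with any other array over all probe sets, against 0.879 to 0.958 among the other 5. Its actin 3'/5' probe ratio, which rises with degraded RNA, was 12.4, against 1.11 and 2.93 on CKS1B hairpin arrays A and C, while the scrambled arrays read 1.05 to 1.66. The SD of log2 values was 1.61 on that array, and scrambled array C had 1.83, while the remaining 4 arrays had 2.20 to 2.24. All 6 plasma cell markers passed the filter on low values, and their sum was 14455 to 30979 on CKS1B hairpin arrays against 23531 to 31206 on scrambled arrays. Of these, only MZB1 lay lower on every CKS1B hairpin array, at 1178, 442.5 and 2080 against 2655, 3429 and 2403 (log2 difference -1.43, and -0.83 without array B). The other plasma cell markers had overlapping groups and went both ways. SDC1 and PRDM1 differed by 0.33 and 0.39 (-0.0031 and 0.13 without array B). TNFRSF17, IRF4 and XBP1 differed by -1.19, -0.51 and -0.75 (0.11, -0.13 and -0.36 without array B). The summed T and NK cell markers (4 genes) read 412 to 3495 on CKS1B hairpin arrays, with the highest sum on array B, against 306.5 to 1034 on scrambled arrays. Of the 4, 3 passed the filter, CD3E, CD3D and CD2. CD3E and CD3D read 1235 and 1219 on CKS1B hairpin array B, against at most 306 and 539 on any other array. The median over all probe sets other than controls was also highest on that array, at 334 against 117.5 to 201.6 on the others. None of the 3 myeloid markers passed the filter (summed 163 to 654 against 172 to 288). The other lists were B cell (3 genes, 4932 to 7928 against 5492 to 8186), stromal (4 genes, 499 to 1770 against 817 to 1204) and erythroid markers (2 genes, 289 to 799 against 328 to 680), and no marker read 0. Of these lists 1 B cell marker, 2 stromal markers and 1 erythroid marker passed the filter. The B cell marker was MS4A1, at 4578 to 7996 over the 6 arrays, while PAX5 and BLK read at most 287 and 91.9. The part of RNA quality and of these markers in the results below was not tested, so results are given with and without array B.

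Most of the replication genes read lower with the CKS1B hairpin, but none passed the threshold. Of the 38 members, 33 were lower and the other 5 higher. Their median log2 difference was -0.78, while over all genes tested 55.7% were lower and the median was -0.08. Without CKS1B hairpin array B, 29 were lower and the other 9 higher, and the median was -0.17, against 53.5% of all genes and a median of -0.04. CKS1B hairpin arrays A and C had 28 and 26 members below the scrambled mean (medians -0.25 and -0.18). Scrambled array C, set against the other 2 scrambled arrays, came near this, with 25 members below and a median of -0.16. Scrambled arrays A and B had 17 and 12 below (medians 0.03 and 0.09). In limma 0 of 12663 genes (0%) and 0 members passed an adjusted p of 0.05 with 6 arrays. Members' adjusted p lay between 0.933 and 0.992. At an unadjusted p under 0.05 there were 3 members, MCM10, GINS3 and POLE2, each lower, where 1.75% of all genes were called as lower. Without array B, 0 members and 5 genes (0.0395%) passed an adjusted p of 0.05, and 9 members were lower at an unadjusted p under 0.05, where 4.54% of all genes were. In total RNA of a culture, fewer cells in G1/S or S phase and less RNA per cell cannot be told apart.

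**Figure D1:**
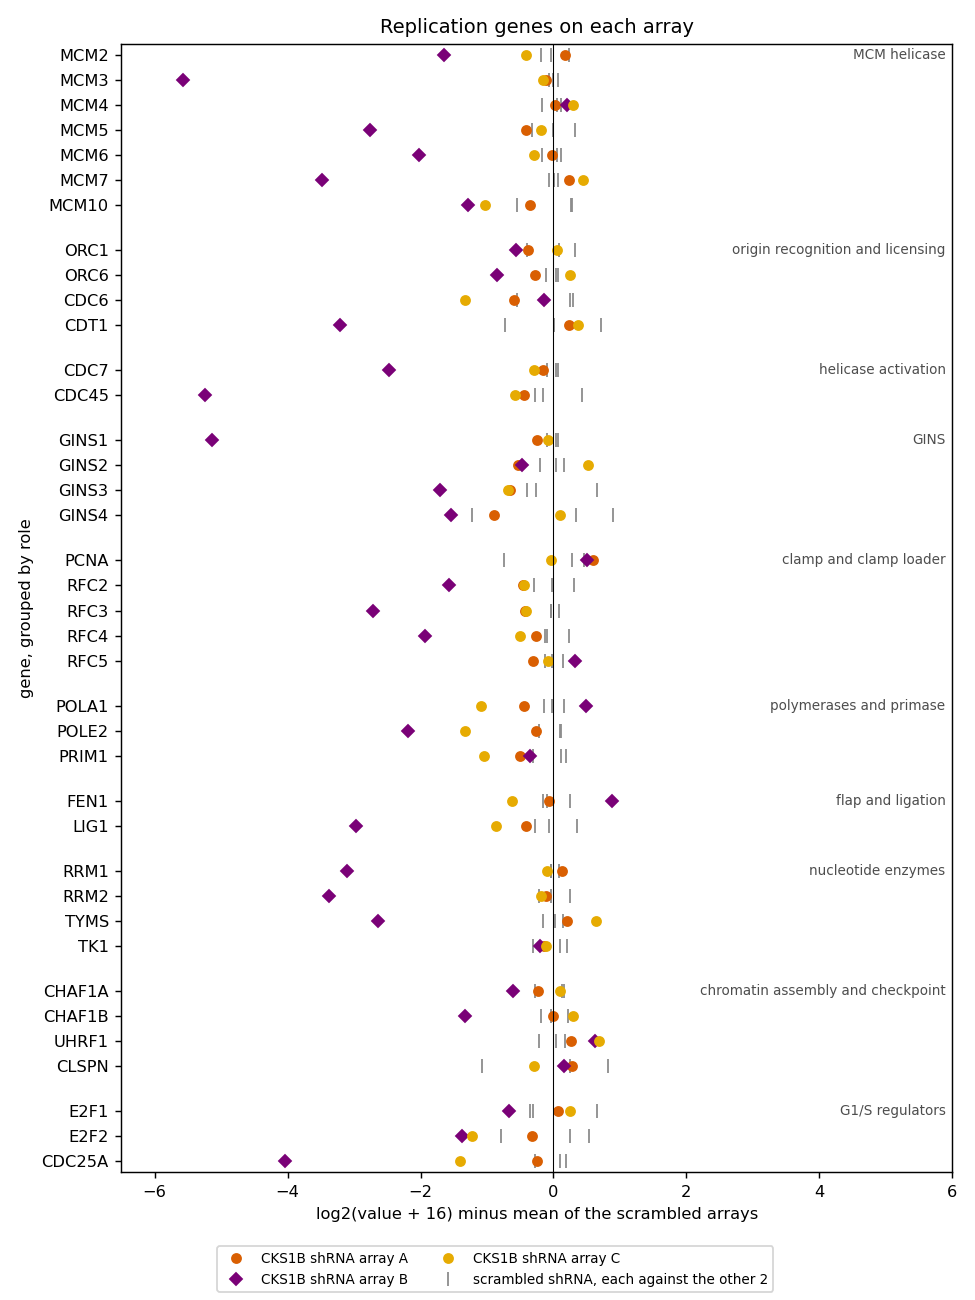
Difference of each member from the mean of the scrambled arrays (log2 units, x axis), with genes grouped by role (y axis); circles and diamonds are CKS1B hairpin arrays A, B and C, and ticks are scrambled arrays, each set against the other 2. CKS1B hairpin array B (diamonds) spreads furthest to the left, with a median of -1.56, while arrays A and C have medians of -0.25 and -0.18. Scrambled arrays A, B and C have medians of 0.03, 0.09 and -0.16.

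The groups did not overlap in 13 members: 12 lay lower on all 3 CKS1B hairpin arrays than on any scrambled array and 1 lay higher. That is 31.6% of members lower, against 6.41% of all genes, and 2.63% higher, against 4.94%. Members vary together across arrays, so their counts are not independent of each other. Taken 1 array at a time, 21, 29 and 21 members read below all 3 scrambled arrays on CKS1B hairpin arrays A, B and C, and 6, 6 and 7 read above all 3. Over all genes the shares below were 29.4%, 41.9% and 30.9%, and those above were 24.9%, 39.4% and 30.3%. Without array B the count of members lying lower was 14 (36.8%), against 14.4% of all genes, since CDC6 and POLA1 joined the 12. The count lying higher was 3 (7.89%), against 13.6% of all genes: MCM7, TYMS and UHRF1.

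Origin recognition and licensing genes were lower in 4 of 4 cases, with a median log2 difference of -0.50 that was -0.09 without array B. CDC6, the ATPase that helps to load the MCM ring, read 1164, 1599 and 693 on CKS1B hairpin arrays A, B and C, against 2030, 1992 and 1372 on the scrambled ones. Only array B overlapped the scrambled arrays, and the log2 difference was -0.69 (SE 0.40), or -0.97 (SE 0.30) without that array. The other CDC6 probe set read 1247, 785 and 797 against 2023, 1905 and 1374, with no overlap. CDT1, the partner of CDC6 in loading, differed by -0.87, but by 0.30 without array B, which read 158. Another CDT1 probe set, at 730 on array B, gave -0.34, and -0.15 without that array. The origin recognition subunits ORC1 and ORC6 differed by -0.30 each, or by -0.17 and -0.02 without array B, and their groups overlapped.

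Among the MCM genes, subunits of the replicative helicase ring and the helicase factor MCM10, 6 of 7 were lower, with a median of -0.89 that shrank to -0.13 without array B. MCM10, which helps to activate the helicase, read 2164, 1135 and 1349 on CKS1B hairpin arrays A, B and C, against 3134, 3168 and 2153 on the scrambled arrays. Array A exceeded scrambled array C by a small margin, so the groups overlapped (log2 difference -0.89, SE 0.38, and -0.69 without array B). The other MCM10 probe sets did not move alike. Of these, 1 read 946, 1044 and 1227.5 against 913, 660.5 and 773.5, higher on every CKS1B hairpin array (log2 difference 0.45, and 0.47 without array B). The other differed by -0.61 (-0.32 without array B), with overlapping groups. MCM3 lay lower on all 3 CKS1B hairpin arrays, at 12738, 272 and 12344 against 13716, 14161 and 13302. Arrays A and C came close to the lowest scrambled array, and the log2 difference of -1.95 (SE 1.36) was -0.13 without array B. The other ring subunits MCM2, MCM5 and MCM6 differed by -0.62, -1.12 and -0.78, and by -0.11, -0.29 and -0.16 without array B. Their groups overlapped. Another MCM5 probe set read 2350, 505 and 2025.5 against 3218, 2583 and 2607, without overlap (log2 difference -1.04, and -0.35 without array B). MCM7 changed sign, at -0.94 with 6 arrays and 0.34 without array B, where both remaining CKS1B hairpin arrays read above all scrambled ones. Another MCM7 probe set gave -1.44, and 0.17 without array B, with overlapping groups in both settings. MCM4 differed by 0.17 on its brightest probe set, where the groups overlapped, and its other probe sets are given below.

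Both genes of helicase activation, CDC7 and CDC45, lay lower on every CKS1B hairpin array. CDC7, the kinase that phosphorylates the MCM ring to fire origins, read 1317, 251 and 1198 against 1485, 1398 and 1509 on the scrambled arrays. CDC45, a core part of the active helicase, read 1263, 29.6 and 1143 against 1598, 1502 and 2100. Array B held the lowest value of both genes, and the log2 differences of -0.97 (SE 0.60) and -2.09 (SE 1.16) were -0.22 and -0.51 without it. Neither gene has another probe set here.

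All 4 GINS genes, whose products join CDC45 and the MCM ring in the active helicase, were lower, with a median of -0.90, or -0.28 without array B. GINS3 read 894, 425 and 873 on CKS1B hairpin arrays A, B and C, against 1174, 1258 and 1930 on the scrambled arrays, a mean of 731 ± 265 against 1454 ± 415 (SD, n = 3). All 3 CKS1B hairpin arrays lay below all scrambled arrays, and the log2 difference was -1.02 (SE 0.40), or -0.67 (SE 0.28, adjusted p = 0.504 in limma) without array B. Another GINS3 probe set differed by -0.27 (-0.41 without array B) with overlapping groups. GINS1 read 3847, 114 and 4340 against 4382, 4723 and 4661, lower on each array but close on arrays A and C (log2 difference -1.82, SE 1.23, and -0.17 without array B). GINS2 and GINS4 differed by -0.16 and -0.78, or by -0.01 and -0.40 without array B, and their groups overlapped.

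Polymerase and primase genes were lower in 3 of 3 cases, and their median was not smaller without array B, at -0.64 with 6 arrays and -0.78 without that array. POLE2, a subunit of the leading-strand polymerase epsilon, read 2146, 552 and 1009 on CKS1B hairpin arrays A, B and C, against 2700, 2709 and 2332 on the scrambled arrays. Each CKS1B hairpin array lay below each scrambled array, with a log2 difference of -1.26 (SE 0.50) that was -0.80 (SE 0.31, adjusted p = 0.504 in limma) without array B. PRIM1, the catalytic subunit of primase, read 3144, 3492 and 2155 against 4721, 4889 and 3895. Its groups did not overlap either, and array B was the highest of the CKS1B hairpin arrays (log2 difference -0.64, SE 0.38, and -0.78, SE 0.24, adjusted p = 0.460 in limma without array B). POLA1, the catalytic subunit of the polymerase that extends the primer, read 969, 1868 and 614.5 against 1431, 1316 and 1246. Arrays A and C lay below all scrambled arrays while array B lay above them, so that the log2 difference was -0.35 with 6 arrays and -0.77 without array B. On array C these 3 genes had a median of -1.09 from the scrambled mean, on array A -0.45, and the scrambled arrays spanned -0.21 to 0.11.

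**Figure D2:**
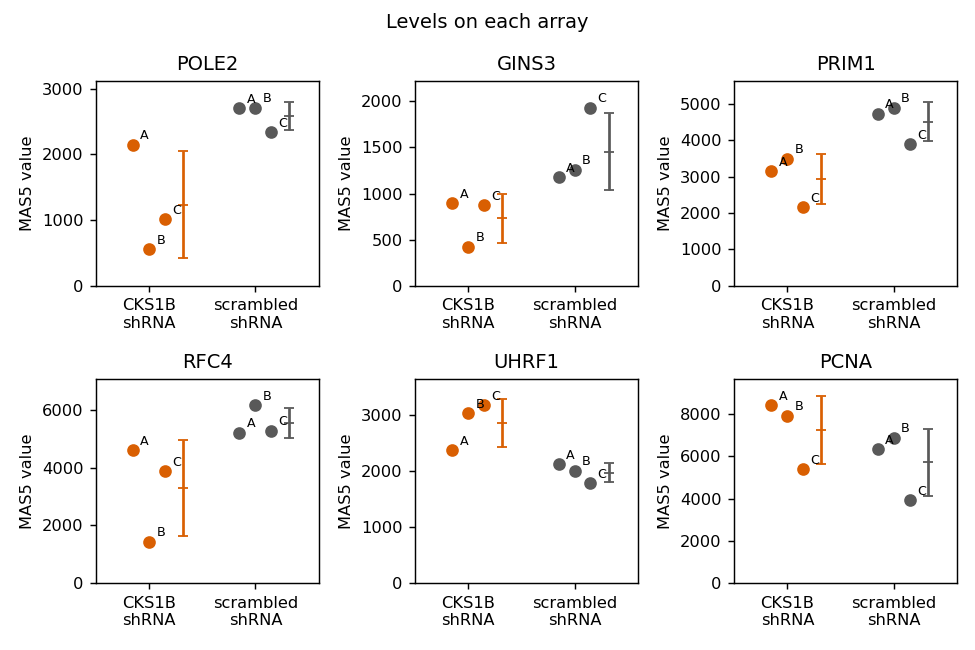
MAS5 values (linear y axis from 0) of 6 members on each array, with CKS1B hairpin arrays left and scrambled arrays right, letters naming the arrays, and the bar giving mean ± SD of 3 arrays. POLE2, GINS3, PRIM1 and RFC4 lie lower and UHRF1 higher on every CKS1B hairpin array, and PCNA overlaps.

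The clamp loader subunits RFC2, RFC3 and RFC4 lay lower on every CKS1B hairpin array, and the clamp PCNA did not. RFC2 read 2109, 969 and 2141 on CKS1B hairpin arrays A, B and C, against 2890, 3368 and 2542 on the scrambled arrays (log2 difference -0.83, SE 0.41, and -0.45 without array B). RFC3 read 3348, 670 and 3379 against 4420, 4662 and 4417 (log2 difference -1.18, SE 0.64, and -0.42 without array B). RFC4 read 4598, 1434 and 3882 against 5207, 6145 and 5278 (log2 difference -0.90, SE 0.51, and -0.39 without array B). In each of the 3, arrays A and C lay together below the scrambled range and array B lay far below them. RFC2 has another probe set, which read 1508, 922 and 956 against 2191, 2218 and 1971, also without overlap. The groups overlapped on both other RFC3 probe sets, which differed by -0.79 and -0.29 (-0.97 and -1.06 without array B). RFC5 differed by -0.02, or -0.19 without array B, and its other probe sets went both ways, at -0.96 and 0.55, with overlapping groups. PCNA read 8394, 7918 and 5397 against 6329, 6869 and 3924, a log2 difference of 0.36 (SE 0.45, and 0.28 without array B) with overlapping groups.

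At the lagging strand, LIG1, the ligase that seals Okazaki fragments, read 910.5, 141.5 and 658 against 1062, 1175 and 1429 on the scrambled arrays. The groups did not overlap (log2 difference -1.41, SE 0.63, and -0.64, SE 0.27, without array B). FEN1, the nuclease that trims the flaps of these fragments, differed by 0.06, and by -0.35 without array B, which read highest at 7182. Another FEN1 probe set read 2653 on that array and gave -0.20, or 0.02 without it.

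The 4 enzymes of nucleotide supply had a median near 0 without array B. All 4 enzymes were lower with 6 arrays (median -0.81), and 2 of 4 without array B (median -0.05). RRM2, the small subunit of ribonucleotide reductase, read 10589, 1092 and 10120 against 11299, 12872 and 10407. Arrays A and C lay within or next to the scrambled range, and the log2 difference of -1.22 (SE 0.87) was -0.15 without array B. RRM1, the large subunit, gave -1.02 and 0.02 without array B. TYMS, thymidylate synthase, gave -0.60 and 0.42, with both remaining CKS1B hairpin arrays above the scrambled ones. Another TYMS probe set gave -0.65 without array B, the opposite direction. TK1, thymidine kinase, differed by -0.15.

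Chromatin and checkpoint genes were lower in 2 of 4 cases. UHRF1, which brings the maintenance DNA methyltransferase to replicated DNA, read 2369, 3027 and 3162 on CKS1B hairpin arrays A, B and C, against 2122, 2004 and 1780 on the scrambled arrays. By the brightest probe set, it was the only member higher on every CKS1B hairpin array, a mean of 2853 ± 424 against 1968 ± 174 (SD, n = 3). The log2 difference was 0.52 (SE 0.33, adjusted p = 0.933 in limma), and 0.48 without array B. The histone chaperone subunits CHAF1A and CHAF1B differed by -0.25 and -0.35, but by -0.06 and 0.15 without array B. Other CHAF1A probe sets past the filter gave -0.50 and -1.27 (-0.22 and -0.41 without array B), with overlapping groups. CLSPN, which relays fork stress to the checkpoint kinase, differed by 0.05, and by -0.0024 without array B. CHAF1A, CHAF1B and CLSPN had overlapping groups on their brightest probe sets.

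The G1/S regulators were lower in 3 of 3 cases, with a median of -0.98, or -0.78 without array B. CDC25A, the phosphatase that activates cyclin-dependent kinases at G1/S, read 1252.5, 76.0 and 556 against 1563, 1632.5 and 1309. No CKS1B hairpin array reached the lowest scrambled array, although array A came close to it (log2 difference -1.90, SE 0.85, and -0.83, SE 0.33, adjusted p = 0.504 in limma without array B). E2F2, an activating E2F factor, read 2590, 1241 and 1371 against 4157, 3640 and 2250. Array A overlapped scrambled array C, and the log2 difference was -0.98 (SE 0.43), or -0.78 without array B. E2F1, its relative, differed by -0.11, and by 0.16 without array B. Other probe sets of these regulators did not all follow. Another E2F1 probe set gave 0.17, or 1.03 without array B. The further CDC25A probe sets gave -0.87 and 0.07 (-0.22 and -0.12 without array B), and those of E2F2 gave 0.11 and -0.30 (-0.42 and -0.49 without array B), all with overlapping groups.

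**Figure D3:**
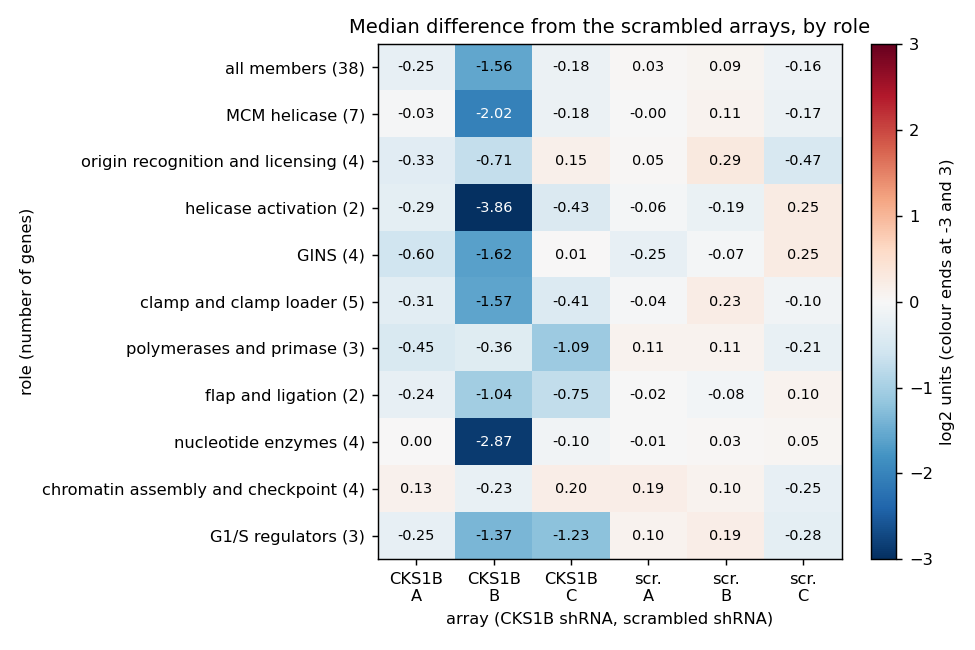
Median log2 difference from the scrambled arrays for each role (rows, number of genes in brackets) on each array (columns, CKS1B hairpin left, scrambled right, each scrambled array set against the other 2). Within its own row, polymerases and primase read lowest on CKS1B hairpin array C at -1.09, and MCM genes and nucleotide enzymes on array B at -2.02 and -2.87. Between rows, G1/S regulators were lowest on array C at -1.23, and helicase activation on array B at -3.86.

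Array B and the level of a gene were linked over the whole table. Across 12663 genes, which are not independent replicates and share the scrambled mean of the x axis, Spearman's rho between the scrambled level and the difference was -0.63 on CKS1B hairpin array B, against 0.26 and 0.03 on arrays A and C. For the 38 members it was -0.26, 0.22 and 0.10 on arrays B, A and C. Normalization that acts on level (cyclic loess) left 30 of 38 members lower with 6 arrays, with a median of -0.50, against 50.1% of all genes and a median of 0.00. After it 15 members (39.5%) lay lower on every CKS1B hairpin array, against 6.7% of all genes. Without array B the same normalization gave a median of -0.39 in place of -0.17, again with 30 of 38 lower. In that setting 21 members (55.3%) lay below all scrambled arrays, against 14.4% of all genes. Scrambled array C, with its narrower log2 values, had its members' median at -0.16 from the other 2 scrambled arrays before and at 0.03 after cyclic loess. In both settings 0 members passed an adjusted p of 0.05 in limma.

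**Figure D4:**
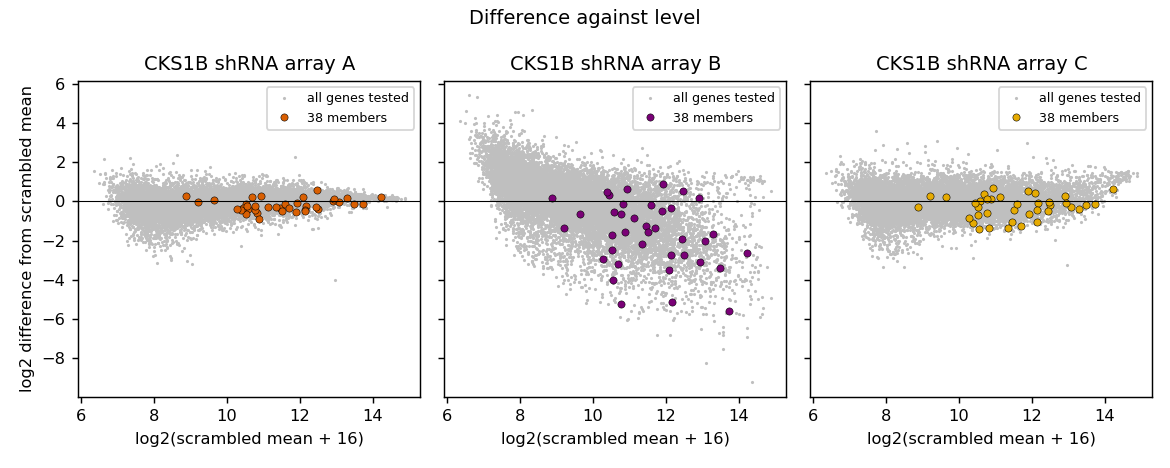
Difference from the scrambled mean (log2 units, y axis) against the scrambled level (log2(mean + 16), x axis) for all 12663 genes (grey) and the 38 members (coloured) on CKS1B hairpin arrays A, B and C. On array B the whole cloud tilts down with level (rho -0.63), and on arrays A and C it does not tilt down (0.26 and 0.03).

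Probe sets of the same gene read unlike each other on array B. Of the 38 members, 22 had more than 1 probe set past the filter, and the median range between probe sets of a gene in their difference from the scrambled arrays was 1.83 log2 units on CKS1B hairpin array B. It was 0.24 and 0.69 on arrays A and C, and the scrambled arrays had 0.44 to 0.58. Over 5744 genes with several probe sets it was 1.68 on array B. The widest members were CDC25A at 4.49, MCM4 at 4.08 and RFC3 at 3.96. Brightest MCM4 values were 7788, 8816 and 9414 on CKS1B hairpin arrays A, B and C against 7846, 8077 and 7099, while another MCM4 probe set read 5870.5, 424 and 2192 against 5745, 6080 and 3724. A further MCM4 probe set read 3091, 304 and 3076 against 3504, 3139 and 3244, without overlap (log2 difference -1.19, and -0.09 without array B). The last one past the filter gave 0.01, or -0.25 without array B, with overlapping groups. The member's direction thus differed between its probe sets, and without array B only the brightest was higher. Of the 33 further probe sets, 23 were lower with 6 arrays (median -0.41) and 27 without array B (median -0.32).

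**Figure D5:**
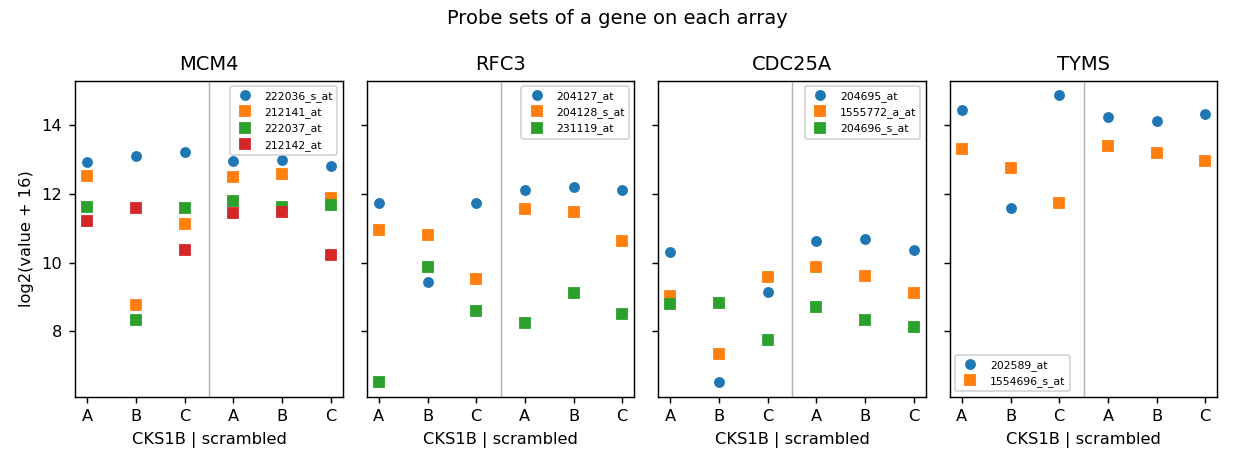
Levels (log2(value + 16), y axis) of every probe set past the filter for 4 members on each array (x axis, CKS1B hairpin A to C left of the line, scrambled A to C right of it), with circles marking the brightest probe set. Probe sets of MCM4, RFC3 and CDC25A part on CKS1B hairpin array B, by 4.08, 3.96 and 4.49 log2 units in their difference from the scrambled arrays.

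Promoters of 35 members were found in the RefSeq windows (GRCh38.p14, 250 bases before to 50 after a start), and 3 members, GINS4, MCM4 and MCM5, were not matched. Because E2F factors control many of these genes, the windows were searched on both strands for TTTCGCGC, TTTGGCGC, TTTCCCGC and TTTGCCGC, forms of the E2F motif, of which matches on opposite strands can share letters. At least 1 window of 21 members (60.0%) held a match, against 3.99% of 27305 genes and 6.36% of 10236 genes tested. Of the 12 members lower on every CKS1B hairpin array 8 held a match, and of the other 23 members 13 did. The following windows were picked among those that held a match. They belong to 3 members lower on every CKS1B hairpin array and to the member that was higher, with the match in capitals.
POLE2: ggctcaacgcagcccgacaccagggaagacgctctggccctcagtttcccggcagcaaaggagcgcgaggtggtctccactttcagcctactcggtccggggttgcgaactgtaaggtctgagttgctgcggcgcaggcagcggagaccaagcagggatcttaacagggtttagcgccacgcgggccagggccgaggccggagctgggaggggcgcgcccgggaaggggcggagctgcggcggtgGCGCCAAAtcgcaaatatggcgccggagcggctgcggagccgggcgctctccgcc
GINS3: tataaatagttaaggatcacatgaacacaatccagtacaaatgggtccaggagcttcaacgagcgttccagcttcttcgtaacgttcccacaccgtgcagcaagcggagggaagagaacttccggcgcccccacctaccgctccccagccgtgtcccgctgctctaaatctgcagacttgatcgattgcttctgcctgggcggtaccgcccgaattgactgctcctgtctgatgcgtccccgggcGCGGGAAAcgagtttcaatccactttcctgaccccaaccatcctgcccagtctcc
CDC25A: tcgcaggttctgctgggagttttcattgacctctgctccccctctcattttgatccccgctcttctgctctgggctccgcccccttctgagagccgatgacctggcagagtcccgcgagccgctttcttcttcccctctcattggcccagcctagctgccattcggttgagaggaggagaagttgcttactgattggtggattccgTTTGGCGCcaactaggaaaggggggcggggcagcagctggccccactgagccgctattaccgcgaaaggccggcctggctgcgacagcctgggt
UHRF1: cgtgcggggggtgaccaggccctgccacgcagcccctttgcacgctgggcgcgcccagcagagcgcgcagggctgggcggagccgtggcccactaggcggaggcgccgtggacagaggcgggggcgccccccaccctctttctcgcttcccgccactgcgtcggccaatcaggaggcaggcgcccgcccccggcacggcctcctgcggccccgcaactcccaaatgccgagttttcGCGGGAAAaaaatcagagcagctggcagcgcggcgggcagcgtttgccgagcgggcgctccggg

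These windows lie at chr14:49688165-49688464 (minus strand) for POLE2, chr16:58392221-58392520 (plus strand) for GINS3, chr3:48188368-48188667 (minus strand) for CDC25A and chr19:4909251-4909550 (plus strand) for UHRF1. The match begins 5 bases before the start in POLE2 and GINS3, 44 before it in CDC25A and 14 before it in UHRF1. UHRF1, the member that was higher, and the 3 members that were lower were shown because their windows held a match. That they share such letters is therefore not a finding. CDC45, RFC2, RFC4 and PRIM1, also lower on every CKS1B hairpin array, held no match. A match describes these letters and is neither a binding site nor a cause.

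Other genes of the pathway were also mostly lower, less clearly so without array B. Of 53 further genes of replication and G1/S, 52 were measured and tested. With 6 arrays 40 were lower and 12 higher, where 55.7% of all genes were lower, and the median was -0.50. Without array B 32 were lower and 20 higher, where 53.5% of all genes were lower, and the median was -0.11. In limma 0 passed an adjusted p of 0.05 with 6 arrays, and 2, RFC1 and DSCC1, both lower, had an unadjusted p under 0.05, where 1.75% of all genes were called as lower. Without array B 3 of the 52 were lower at that p, near the 4.54% of all genes. Groups without overlap were found in 9 of the 52 (17.3%), all lower, against 6.41% of all genes. Without array B 10 lay lower (19.2%), near the 14.4% of all genes, and 2 lay higher (3.85%), against 13.6%. DSCC1, a subunit of an alternative clamp loader, read 1529, 1665 and 1433 on CKS1B hairpin arrays A, B and C, against 3015, 3077 and 2788 on the scrambled arrays. Here array B lay with arrays A and C, and the log2 difference of -0.93 (SE 0.31, adjusted p = 0.933 in limma) was -0.99 (SE 0.21, adjusted p = 0.278) without it. RFC1, the large subunit of the main clamp loader, read 964, 847 and 768 against 1616, 1388 and 1301. Its 3 CKS1B hairpin values again lay close together and below the scrambled range (log2 difference -0.73, SE 0.29, and -0.72 without array B). Another RFC1 probe set did not show this, at 1090, 2241 and 563 against 1235, 1133 and 909, a log2 difference of 0.04 with overlapping groups (-0.46 without array B). POLD3, a subunit of polymerase delta, read 1137, 1560 and 814 against 1764, 1878 and 1830, a log2 difference of -0.68 (SE 0.34), or -0.91 without array B, while another POLD3 probe set gave 0.11 and -0.25. The groups did not overlap on the brightest POLD3 probe set. E2F7, a repressive E2F factor, read 1382.5, 803 and 1256.5 against 2048, 1915 and 1439 (log2 difference -0.66, and -0.43 without array B). ATAD5, which unloads PCNA, read 339.5, 138 and 299 against 463, 406 and 436 (log2 difference -0.80, and -0.43 without array B). These 2 and CDCA7, a partner of the remodeller HELLS with a log2 difference of -1.37 (-0.43 without array B), again had every CKS1B hairpin array below the scrambled range. The group of cyclins, kinases and E2F factors had 3 of 8 genes lower, E2F7, E2F8 and TFDP1, and a median of 0.05. Other TFDP1 probe sets went both ways, at 0.73 and -0.80 (1.19 and -0.69 without array B). The other 5 of the 8 had overlapping groups on their brightest probe sets. They were the cyclins CCNE1 (0.04, and 0.48 without array B), CCNE2 (0.37 and 0.15) and CCNA2 (0.06 and 0.04), their kinase CDK2 (0.06 and 0.05) and the activating factor E2F3 (0.17 and 0.02). Another CCNE2 probe set went the other way, at 1048, 687 and 630 against 1588.5, 1859 and 1194, without overlap (log2 difference -0.97, and -0.89 without array B). Further probe sets of CCNA2, CDK2 and E2F3 past the filter gave -0.45, -0.53 and -0.30, with overlapping groups.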

How the data were processed

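Each probe set has a linear intensity per array in the deposited table, which the authors computed with MAS5 (a scaled linear signal), per the submitters' notes on processing. The sources used here do not give its version or settings. The 2% trimmed mean was 500 on every array. Of 54675 probe sets, 62 controls were left out and 41091 of the others were named with 1 gene through the platform annotation, 41037 of them matched by Entrez identifier to RefSeq (GRCh38.p14). Values were turned into log2(value + 16), and the brightest probe set of each gene over 6 arrays was kept if its mean was at or above the median, 7.34.

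Groups came from the labels. Every gene was fitted by lmFit and eBayes with trend, without covariates (limma 3.58.1, R 4.3.3), with Benjamini-Hochberg adjustment and a threshold of 0.05, and the fit was checked on simulated data. Members were described in full where the groups did not overlap or where the p was smallest in its role, and pathway genes where the groups did not overlap, up to 6 by p. The members, lists and tests were chosen with earlier results of these data known. Alternatives covered pseudocounts, filters, normalization, probe sets, the letter as a block and arrays left out. The number of arrays limits the precision. Python 3.11.15 and matplotlib 3.10.9 drew the figures.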

Additional observations from a re-analysis of the deposited data

How the results depend on the processing

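Differences are CKS1B hairpin minus scrambled shRNA in log2 units. Under all 26 alternatives 0 members passed an adjusted p of 0.05, and the members' median stayed below 0. It ranged between -1.05 and -0.12, the value nearest 0 being that without both arrays of letter B. With centring on the median the median of all genes was -0.31, against -0.08 in the comparison as reported, and members' values there are to be read against it. Of the 38 members 23 kept their sign throughout, and 15 changed it in at least 1 setting, though none of these had passed the threshold. The cause of these changes was not tested.

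The number of genes past the threshold was 1 with cyclic loess, 4 with array weights and 1 without both letters B. Without CKS1B hairpin array B it was 2 with quantile normalization, 4 with cyclic loess and 6 with probe sets chosen on the other 5 arrays. Leaving out each array gave 0 to 5. CKS1B differed by -3.75, -3.80, -3.59, -3.68, -3.71 and -3.63 in the 6 settings in that order, each past the threshold, and by -4.41 to -3.63 when single arrays were left out. Choosing probe sets on the 5 arrays, and leaving out scrambled array C together with CKS1B hairpin array B, were alternatives chosen after seeing the data.

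The labels do not say whether the letters pair the arrays. Deviations from the group means correlated at 0.40 for A and at -0.08 for both B and C. CKS1B hairpin array B enters the mean of its group, so these values cannot decide whether the arrays are paired. With the letter as a replicate block, 0 genes passed with 6 arrays. With that block and without CKS1B hairpin array B, 179 genes and 1 pathway gene, DSCC1, passed, from 1 residual degree of freedom (CKS1B -3.59).

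Member values that changed sign were, with centring, MCM4 -0.060, FEN1 -0.17 and CLSPN -0.18. With quantile normalization they were GINS2 0.043, RFC5 0.17, TK1 0.083 and CLSPN -0.053, and with cyclic loess GINS2 0.16, RFC5 0.20 and TK1 0.16. Array weights gave MCM7 0.20, FEN1 -0.27, TYMS 0.31, CHAF1B 0.027, CLSPN -0.22 and E2F1 0.28. Averaging probe sets within genes gave MCM4 -0.63, GINS2 0.16, FEN1 -0.070 and E2F1 0.027, and probe sets without a suffix, which measure 30 of 38 members, MCM4 -1.51, MCM10 0.45, GINS2 0.49 and E2F1 0.17. Without letter A the values were GINS2 0.037 and RFC5 0.078, and without letter C RFC5 0.051 and CLSPN -0.14. Without letter B, and likewise without array B but with the replicate block, they were MCM7 0.34, ORC6 0.0059, CDT1 0.54, FEN1 -0.38, RRM1 0.0021, TYMS 0.37, CHAF1B 0.14 and E2F1 0.058. Without array B, quantile normalization gave MCM4 -0.12, MCM7 0.16, CDT1 0.29, FEN1 -0.45, CHAF1B 0.27 and E2F1 0.18. Cyclic loess without array B gave MCM4 -0.088, MCM7 0.17, CDT1 0.29, FEN1 -0.47, TYMS 0.013, CHAF1B 0.23 and E2F1 0.23. Probe sets chosen on 5 arrays gave MCM7 0.17, CDT1 0.30, RRM1 0.015, TYMS 0.42, CHAF1B 0.15, CLSPN -0.0024 and E2F1 0.16. Without CKS1B hairpin array B and scrambled array C they were MCM7 0.36, CDT1 0.057, GINS2 0.044, FEN1 -0.40, RRM1 0.0027, TYMS 0.47, CHAF1B 0.088, CLSPN -0.36 and E2F1 0.38. When single arrays were left out, MCM7 spanned -1.63 to 0.34, CDT1 -1.49 to 0.30, GINS2 -0.50 to 0.023, RFC5 -0.19 to 0.12, POLA1 -0.77 to 0.019, FEN1 -0.35 to 0.41, RRM1 -1.60 to 0.015, TYMS -1.22 to 0.42, CHAF1B -0.67 to 0.15, E2F1 -0.29 to 0.16 and CLSPN -0.31 to 0.33.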
